A study of Saccharomyces cerevisiae with 6 samples.

Results

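The 35 genes described here encode the nuclear part of the mitochondrial respiratory chain and of the ATP synthase of Saccharomyces cerevisiae. They were chosen by locus identifier from a table of 10239 loci and hold 3 subunits of complex II, the 3 NADH dehydrogenases, 9 subunits of complex III, 7 of complex IV and 13 of the ATP synthase. RNA was sequenced from aerial cells, the part of a colony biofilm above the agar, and from root cells, which invade the agar, with 3 libraries for each cell type. All libraries came from the unmodified diploid wild strain BR-F, grown for 3 days at 28 °C on a filter laid over medium with 3% glycerol, 1% yeast extract and 0.3% agar. Each sample pooled many colonies, and the study describes its replicates as independent biological ones. Root cells were freed from agar by vortexing and centrifugation before freezing while aerial cells were frozen directly, so cell type and handling cannot be told apart.

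In yeast mitochondria, electrons from NADH and succinate pass through ubiquinone to complex III, cytochrome c and complex IV, which hands them to oxygen. Complexes III and IV pump protons out of the matrix as they do so, and the ATP synthase uses the returning protons to make ATP. This yeast has no proton-pumping complex I. It oxidises NADH with small dehydrogenases instead, an internal one facing the matrix (NDI1) and external ones facing the cytosol (NDE1 and NDE2). Glycerol can be used as a carbon source only by respiration, and the genes of the chain are known to be activated under such conditions by the Hap complex, a CCAAT-binding transcription factor.

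The deposited values were counts of reads per locus and summed to between 13764726 and 17095539 per library. All 35 genes were in the table and passed the filter on low counts. Levels are given as CPM, counts per 1000000 counts of the library size scaled by TMM, a normalization that balances the bulk of loci between libraries. Every log2 fold change is that of root over aerial cells, and negative values stand for genes more abundant in aerial cells. Of 10 genes picked as markers, GIP2, PIG1, PIG2, HSP26 and CTT1 were all higher in aerial cells. The other 5, ARG1, HXK2, AGP1, GDH1 and MAE1, were all higher in root cells. Most of them are named by the study from these libraries, and they were picked with those results known. They thus check the labels only. In RNA from whole cell samples, fewer cells of a type and less RNA per cell cannot be told apart.

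The libraries differed in a way that touched the short genes of the list most, but not them alone. Of the 15 genes with a coding length under 400 bases, all 15 were highest among the aerial libraries in aerial replicate 3, and all 15 were highest among the root libraries in root replicate 1. Their median deviation from the mean of the cell type, in log2 CPM, was −0.21, −0.37 and 0.61 in aerial replicates 1, 2 and 3 and 0.44, −0.25 and −0.15 in root replicates 1, 2 and 3. The 482 protein-coding loci tested with coding lengths under 400 bases had medians of −0.23, −0.07 and 0.34 and of 0.23, −0.18 and −0.05 in the same libraries. In the 3462 loci of at least 1000 bases these medians lay between −0.16 and 0.13. Root replicate 1 was the highest root library for 33 of the 35 genes. The part of these library differences in the fold changes below was not tested, and values without single libraries are given where they matter.

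**Figure D1:**
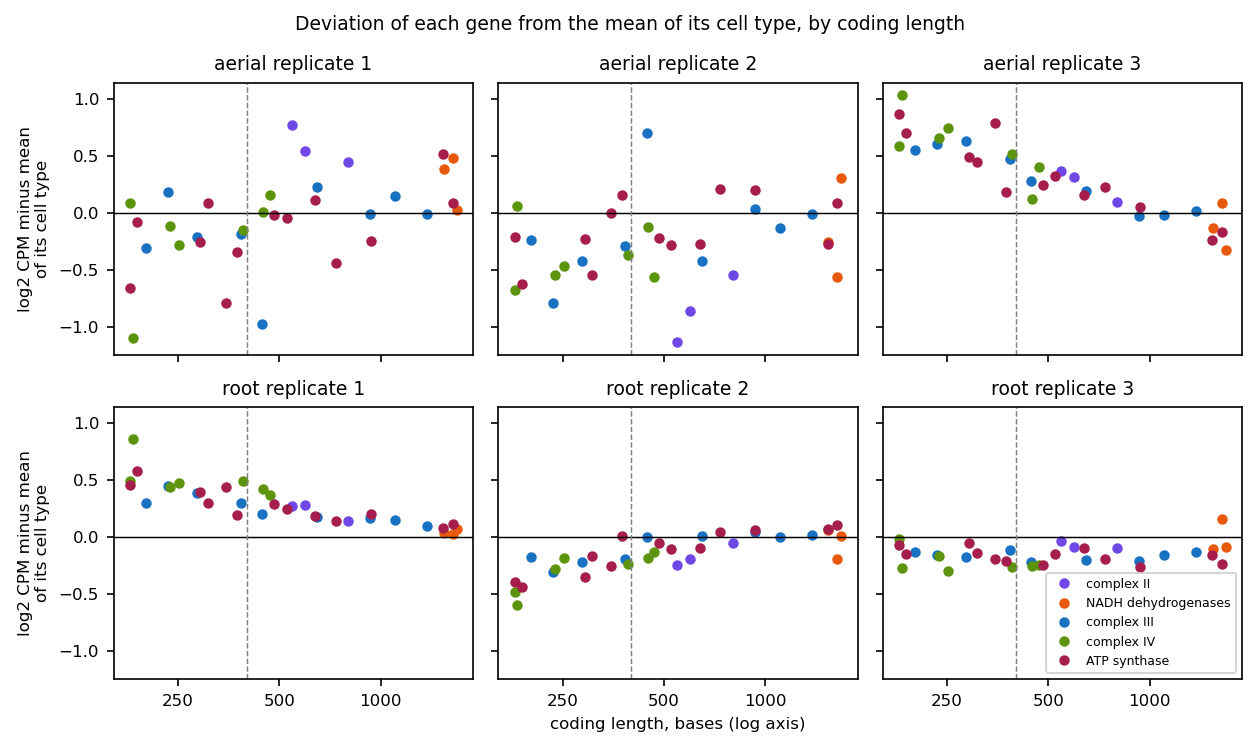
Difference between the log2 CPM of each of the 35 genes in a library and the mean of its cell type (vertical axis), against coding length in bases (horizontal log axis), with one panel for each library and colours for the complexes. The 15 genes left of the dashed line at 400 bases all lie above 0 in aerial replicate 3 and in root replicate 1.

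Most genes of the chain and of the ATP synthase were not called different between root and aerial cells. NDE1 and TIM11, the latter encoding subunit e of the ATP synthase, were higher in root cells, NDE2 was higher in aerial cells, and the other 32 genes did not pass the test. These 3 genes are 8.57% of the 35, whereas 35.1% of the 5873 protein-coding loci tested and 31.6% of all 7971 loci tested passed the threshold of 0.05 on the adjusted p (quasi-likelihood test of edgeR). By direction, 18.2% of protein-coding loci were higher in root and 16.9% in aerial cells. Only NDE2 also passed a fold change of 2, as did 21.2% of protein-coding loci, with 9.13% of protein-coding loci past both in the direction of aerial cells. The CPM of the cell types did not overlap for 8 of the 35 genes (22.9%), against 52.6% of protein-coding loci. The standard error (SE) of the log2 fold change had a median of 0.32 in the 15 genes under 400 bases of coding length. It was 0.31 in the 482 protein-coding loci of such length and 0.21 in the 3462 of at least 1000 bases. The part of this in the lower shares of the list was not tested.

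The median log2 fold change over the 35 genes was 0.26, and that of all protein-coding loci tested was −0.03. A positive value was found for 25 of the 35 genes and for 2840 of 5873 protein-coding loci tested. Outside the 35 genes, 259 of the 482 loci under 400 bases and 1525 of the 3462 of at least 1000 bases were positive. Of the 35 genes, 7 had an unadjusted p below 0.05, a level that 43.1% of all loci tested reached. The 95% interval of the fold change lay within 2-fold in both directions for 20 of the 35 genes, and for 46.9% of protein-coding loci. For the remaining 15 genes, which include the 3 called ones, a 2-fold difference in at least 1 direction was inside the interval. The 2 genes higher in root cells became 4 without aerial replicate 3, where QCR9 and ATP18 joined them, and 1 without aerial replicate 2 or root replicate 2, and both calls were lost without root replicate 1 or 3. Without root replicate 1 the median over the 35 genes was 0.07, and without aerial replicate 3 it was 0.43.

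**Figure D2:**
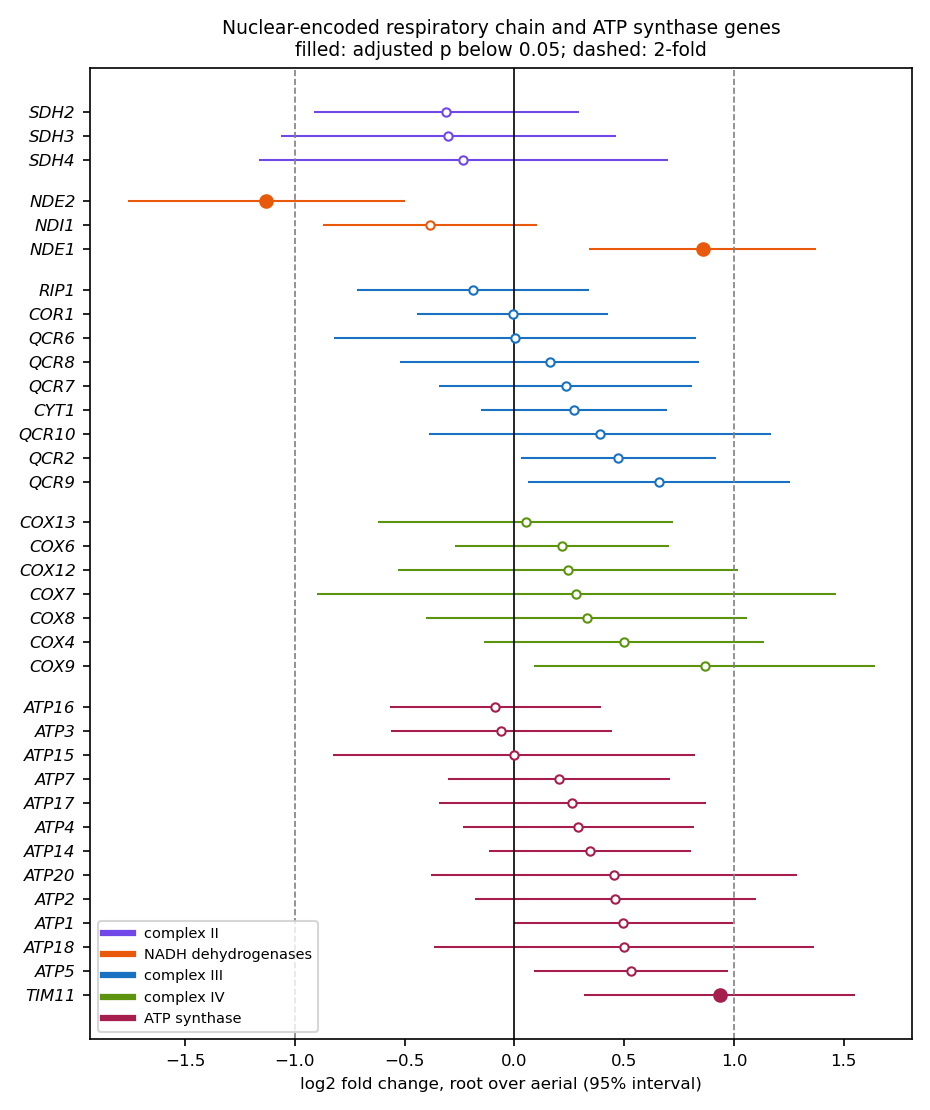
Log2 fold change of root over aerial cells (horizontal axis) with its 95% interval for each of the 35 genes, grouped and coloured by complex, with filled points for genes past an adjusted p of 0.05 and dashed lines at 2-fold. NDE2 at −1.13, NDE1 at 0.86 and TIM11 at 0.93 are the filled points, and the 7 genes of complex IV all lie right of 0 with none of them filled.

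The sequences before the genes were searched for the box bound by the Hap complex. CCAAT and the fuller form CCAATNA, in which N is any base, were searched on both strands from 250 bases before to 50 bases after each start codon in the RefSeq genome R64, and a match to the fuller form is always a match to the shorter one too. The fuller form was found for 25 of the 35 genes (71.4%), compared with 16.0% of 6001 such windows of protein-coding genes. The shorter CCAAT was found for 30 genes (85.7%) and in 43.3% of windows. The box was present for 10 of the 13 ATP synthase genes, 6 of the 7 complex IV genes, 5 of the 9 complex III genes, 2 of the 3 complex II genes and 2 of the 3 NADH dehydrogenases.

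The windows below are shown because they lie before the called genes NDE1 and TIM11, before the internal dehydrogenase NDI1, and before QCR9 and COX9, the uncalled genes with the highest fold changes in complexes III and IV. Each is written 5′ to 3′ on the strand that carries the box, with the match to CCAATNA in capitals. NDE1 also has a match just before its start codon. TIM11 has 2 matches on opposite strands.
NDE1: tctggtaaaCCAATTAaagagagaa
NDI1: tcattcggaCCAATCAtatgaaggc
TIM11 (first): tccgcggagCCAATCAgatctattt
TIM11 (second): ctccgcggaCCAATTAgcgtggaga
QCR9: atacacgacCCAATCAaacgcgggg
COX9: ggtagcgggCCAATCAggttgcagt

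In R64 these windows lie at chrXIII:556562-556586 on the minus strand for NDE1, 95 bases before the start codon, and at chrXIII:30019-30043 on the minus strand for NDI1, 220 bases before it. Those of TIM11 lie at chrIV:1112407-1112431 on the minus strand and chrIV:1112423-1112447 on the plus strand, 122 and 138 bases before the start codon. The window of QCR9 lies at chrVII:859668-859692 on the minus strand, 200 bases before the start codon, and that of COX9 at chrIV:334530-334554 on the plus strand, 142 bases before it. NDE2 had neither CCAATNA nor CCAAT in its window, and COR1, CYT1, COX4 and ATP1 also had no CCAAT upstream of the start codon. The median log2 fold change was 0.24 for the 25 genes with CCAATNA upstream and 0.37 for the 10 without, with ranges of −0.38 to 0.93 and of −1.13 to 0.53. A match is a description of the letters only.

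The external NADH dehydrogenases changed in opposite directions. NDE1 (YMR145C, on the minus strand of chromosome XIII from 554793 to 556475) had 434, 525 and 339 CPM in aerial replicates 1, 2 and 3 and 822, 791 and 738 CPM in root replicates 1, 2 and 3. All root libraries were above all aerial libraries. The log2 fold change was 0.86 (SE 0.23, edgeR quasi-likelihood test with Benjamini-Hochberg adjusted p = 0.0207), which is 1.81-fold higher in root cells. NDE2 (YDL085W, on the plus strand of chromosome IV from 303211 to 304848) had 718, 348 and 545 CPM in the aerial and 249, 214 and 274 CPM in the root libraries. Here all aerial libraries were above all root libraries, with aerial replicate 2 the nearest. Its log2 fold change was −1.13 (SE 0.28, edgeR adjusted p = 0.0155), so that it was 2.19-fold higher in aerial cells.

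Both calls were lost when any root library was left out, with edgeR adjusted p-values of 0.0857, 0.0562 and 0.0501 for NDE1 and of 0.0630, 0.0812 and 0.0546 for NDE2 without root replicates 1, 2 and 3. With those libraries left out, 1229 to 1476 loci were called in all, compared with 2515 with every library. The log2 fold changes without single libraries ranged from 0.70 to 1.02 for NDE1 and from −1.36 to −0.86 for NDE2. The genes are 61.3% identical in nucleotides over their coding alignment, and none of the 35 genes had a copy elsewhere in the genome that was at least 90% identical over at least 50% of its length.

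Per kb of coding length, the ratio of NDE2 to NDE1 was 1.70, 0.680 and 1.65 in aerial replicates 1, 2 and 3 and 0.311, 0.278 and 0.381 in root replicates 1, 2 and 3. NDE2 was thus the more abundant of the pair in 2 of 3 aerial libraries and NDE1 in all 3 root libraries. The log2 ratio was 0.31 ± 0.75 (SD, n = 3) in aerial cells and −1.64 ± 0.23 (SD, n = 3) in root cells. The difference of −1.95 had p = 0.1 in a two-sided exact permutation test, the smallest p that 3 against 3 libraries allow. As both genes separated the cell types in opposite directions, the ratio had to separate them too. This p was thus fixed by the values behind the calls of NDE1 and NDE2 and adds no support to them. The sum of NDE1 and NDE2 was 970.0 ± 158 CPM in aerial cells and 1029 ± 36.2 CPM in root cells (SD, n = 3), and these ranges overlapped.

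NDI1 (YML120C, on chromosome XIII from 28266 to 29807, minus strand) had 277, 177 and 193 CPM in the aerial libraries and 169.9, 172 and 153 CPM in the root libraries. The groups did not overlap, but aerial replicate 2 lay only just above root replicate 2. The log2 fold change was −0.38 (SE 0.21, edgeR adjusted p = 0.205). As shares of the CPM per kb of coding length of the 3 dehydrogenases together, NDE1 made up 29.4%, 48.8% and 30.5% in the aerial libraries. In the root libraries its shares were 65.1%, 66.0% and 62.2%.

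**Figure D3:**
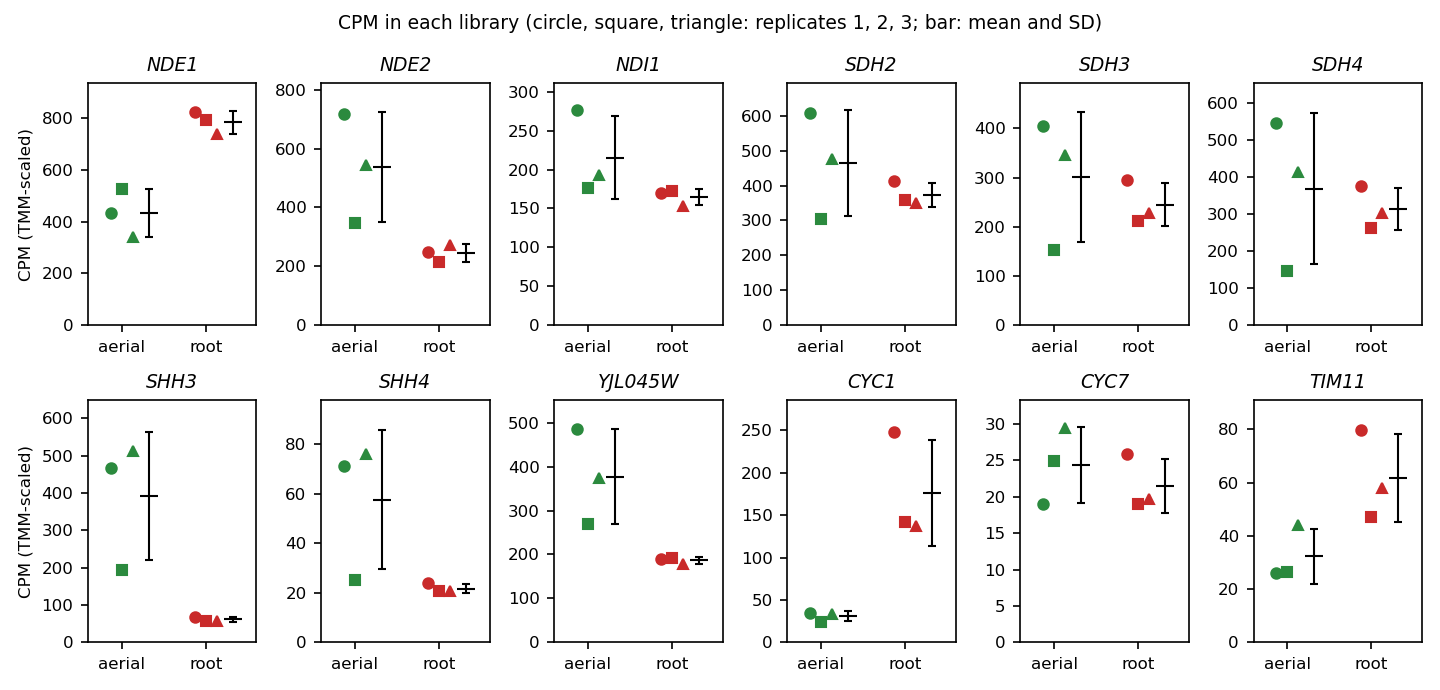
CPM (vertical axes, each from 0) of 12 genes in the aerial (green) and root (red) libraries, with circles, squares and triangles for replicates 1, 2 and 3 and a black bar for the mean and SD. NDE1 is higher and NDE2 lower in every root library, the complex II genes SDH2 to SDH4 overlap between the cell types, their paralogs SHH3, SHH4 and YJL045W are lower in every root library, and CYC1 is higher in every root library.

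Complex II, succinate dehydrogenase, links the citric acid cycle to ubiquinone. Of its 3 genes in the list 0 passed the test with edgeR, 0 had an unadjusted p below 0.05 and DESeq2 called 0. With edgeR 35.1% of protein-coding loci passed, and 43.1% of all loci tested had an unadjusted p below 0.05. SDH2, the iron-sulfur subunit, had 608, 306 and 477 CPM in the aerial and 413, 360.0 and 349 CPM in the root libraries. SDH3, a membrane anchor subunit, had 405, 153 and 346 CPM and 294, 211 and 228 CPM, and SDH4, the other anchor subunit, had 547, 146 and 414 CPM and 375, 263 and 304 CPM. For each of the 3 genes the root libraries lay between the lowest aerial library, aerial replicate 2, and the highest one, aerial replicate 1. The log2 fold changes were −0.31 (SE 0.27) for SDH2, −0.30 (SE 0.34) for SDH3 and −0.23 (SE 0.41) for SDH4, with edgeR adjusted p-values of 0.404, 0.527 and 0.698. Without aerial replicate 2, SDH3 passed the test with a log2 fold change of −0.62 (edgeR adjusted p = 0.0401), and without aerial replicate 1 the value of SDH4 turned to 0.17.

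Complex III, which passes electrons from ubiquinol to cytochrome c, had no gene past the test among 9, and their median log2 fold change was 0.23. By unadjusted p, 2 of them were below 0.05, and DESeq2 also called 0. The shares with edgeR were 35.1% of protein-coding loci past the test and 43.1% of all loci tested by unadjusted p. QCR9 and QCR2 had the highest values. QCR9, a small subunit, had 43.7, 45.9 and 79.9 CPM in the aerial and 109, 78.1 and 80.3 CPM in the root libraries, so that aerial replicate 3 overlapped the root libraries. Its log2 fold change was 0.66 (SE 0.26, edgeR adjusted p = 0.0873), and without aerial replicate 3 it was 0.99 with an edgeR adjusted p of 0.0198. A transcript antisense to QCR9, counted by strand, was higher in aerial cells at 20, 46 and 35 counts against 14, 8 and 17 counts (log2 fold change −1.36, SE 0.36, edgeR adjusted p = 0.0202). This call was lost without aerial replicate 3 and without root replicates 1 and 2, with an edgeR adjusted p of up to 0.0911. The antisense transcripts of COX12 and ATP17 did not pass the test, with values of 0.21 and −0.02 (edgeR adjusted p of 0.724 and 0.962). A relation between sense and antisense transcripts was not tested.

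QCR2, a core subunit, had 363, 299.5 and 323 CPM in the aerial and 504, 456 and 408 CPM in the root libraries, with no overlap. Its log2 fold change was 0.47 (SE 0.20, edgeR adjusted p = 0.0957). The other core subunit gene, COR1, was among the most even of the list, with 575, 577 and 586 CPM in aerial and 617, 584 and 526 CPM in root cells and a log2 fold change of −0.01 (SE 0.19). CYT1, which encodes the haem-bearing subunit that reduces cytochrome c, did not overlap between the cell types at 261 to 271 and 275 to 358 CPM and had a value of 0.27 (SE 0.19, edgeR adjusted p = 0.301).

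The gene of complex III nearest to no change was QCR6, which encodes an acidic subunit. It had 63.9, 205 and 153 CPM in the aerial and 162, 141 and 121 CPM in the root libraries, and its log2 fold change of 0.0026 had an SE of 0.36. Aerial replicate 1 was the lowest library and aerial replicate 2 the highest, with all root libraries between them. RIP1, encoding the Rieske iron-sulfur protein, had a value of −0.19 and the small subunit genes QCR7, QCR8 and QCR10 had values of 0.23, 0.16 and 0.39.

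Complex IV, cytochrome c oxidase, had a positive log2 fold change for all 7 of its genes, between 0.05 and 0.87 with a median of 0.28. With edgeR 0 of them passed the test, 1 had an unadjusted p below 0.05, and DESeq2 called 1. Of the protein-coding loci tested, 2840 of 5873 were positive and 35.1% passed the test with edgeR. By unadjusted p, 43.1% of all loci tested were below 0.05. Without root replicate 1 the median of complex IV turned to −0.02, and without aerial replicate 3 it was 0.71. COX9, encoding a small membrane subunit, had 72.5, 42.6 and 103 CPM in the aerial and 179, 91.5 and 126 CPM in the root libraries. Only root replicate 2 fell below an aerial library. Its log2 fold change of 0.87 (SE 0.34) had an edgeR adjusted p of 0.0837, and DESeq2 gave an adjusted p of 0.0397 for it.

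COX13, the gene of complex IV nearest to no change, had 164, 141 and 260.0 CPM in the aerial and 267, 160.4 and 158 CPM in the root libraries (log2 fold change 0.05, SE 0.30, edgeR adjusted p = 0.910). COX7 had the largest SE of the 35 genes, with 29.0, 65.3 and 128 CPM in aerial and 149, 54.0 and 68.0 CPM in root cells. Its SE was 0.52 around a log2 fold change of 0.28. The remaining nuclear subunit genes COX4, COX6, COX8 and COX12 had values of 0.50, 0.22, 0.33 and 0.24, all with overlapping libraries.

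The ATP synthase had 10 of 13 genes with a positive log2 fold change, a median of 0.35 and 1 gene past the test. Among protein-coding loci tested, 2840 of 5873 were positive and 35.1% passed the test. TIM11 (YDR322C-A, on the minus strand of chromosome IV from 1112003 to 1112293), whose product is needed for the enzyme to form dimers, had 26.1, 26.6 and 44.1 CPM in the aerial and 79.8, 47.2 and 58.1 CPM in the root libraries. The groups did not overlap, and aerial replicate 3 and root replicate 2 lay close together. The log2 fold change was 0.93 (SE 0.27, edgeR adjusted p = 0.0298), or 1.91-fold higher in root cells. Leaving out aerial replicate 1 or 2 or root replicate 1 or 3 ended the call, with edgeR adjusted p-values of 0.0540, 0.0512, 0.129 and 0.0699. The call was also lost with upper quartile normalization (adjusted p = 0.0536) and with library sizes alone (adjusted p = 0.0579).

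Of the genes for the catalytic head, ATP1 (alpha subunit) had 776, 776 and 651 CPM in the aerial and 1119.9, 1111 and 877 CPM in the root libraries without overlap. Its log2 fold change was 0.50 (SE 0.22, edgeR adjusted p = 0.118). ATP2 (beta subunit) had 1637, 948 and 972 CPM and 1726, 1707 and 1459.7 CPM, with aerial replicate 1 inside the range of the root libraries and a value of 0.46 (SE 0.28, edgeR adjusted p = 0.243). Without aerial replicate 1, ATP2 passed the test at 0.77 (edgeR adjusted p = 0.0300). The rotor subunit genes ATP3 (gamma), ATP15 (epsilon) and ATP16 (delta) were near 0, with values of −0.06, −0.0008 and −0.09. ATP15, the nearest to no change, had 93.5, 63.96 and 161 CPM in aerial and 152, 74.6 and 91.6 CPM in root cells with an SE of 0.37.

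ATP5, which encodes the stalk protein that confers oligomycin sensitivity, had 151, 116 and 155 CPM in the aerial and 230.1, 189 and 190 CPM in the root libraries, without overlap. Its log2 fold change was 0.53 (SE 0.20, edgeR adjusted p = 0.0674). The other stator genes ATP4 (subunit b), ATP7 (subunit d) and ATP14 (subunit h) had values of 0.29, 0.20 and 0.35. The genes for the small membrane subunits, ATP17 (subunit f), ATP18 (subunit i/j) and ATP20 (subunit g, a partner of the TIM11 product in dimers), had values of 0.26, 0.50 and 0.45, and all 3 overlapped between the cell types. ATP18 passed the test without aerial replicate 3, at 1.06 (edgeR adjusted p = 0.0437), and ATP20 did not (highest value 0.93).

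Per kb of coding length, ATP2 was the most abundant of the 35 transcripts in both cell types, at 772 ± 254 CPM per kb in aerial and 1062 ± 96.9 CPM per kb in root cells (SD, n = 3). In aerial cells SDH4, QCR7, SDH2 and ATP15 followed, and in root cells COX9, QCR7, ATP1 and COX8. TIM11 was lowest in aerial cells at 111 ± 35.2 CPM per kb, and NDI1 was lowest in root cells at 107 ± 6.56 CPM per kb. The highest level exceeded the lowest by 6.96-fold in aerial and 9.91-fold in root cells. Of the 34 neighbouring pairs in the order of levels, all but 1 in each cell type had overlapping ranges of mean ± SD, the exceptions being COX6 above NDI1 in aerial cells and NDE2 above NDI1 in root cells. NDE2 stood 24th in aerial and 34th in root cells, whereas NDE1 stood 29th and 19th.

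**Figure D4:**
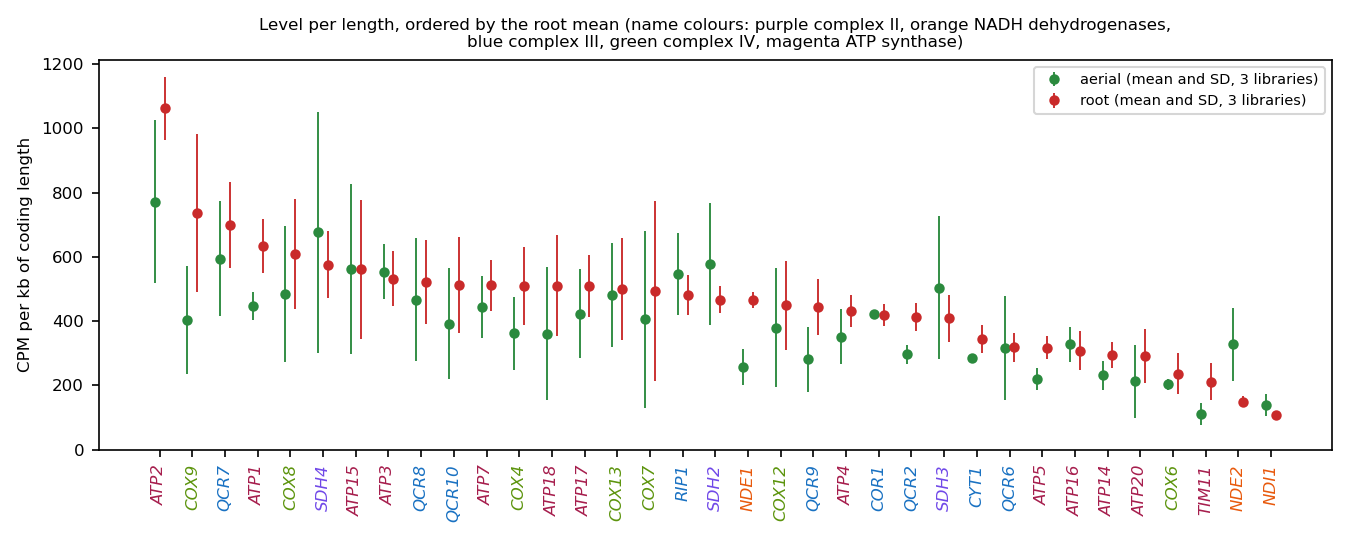
Mean CPM per kb of coding length (vertical axis) with its SD over 3 libraries for the 35 genes in aerial (green) and root (red) cells, ordered by the mean in root cells. ATP2 is highest in both cell types, most neighbours overlap, and the points of NDE1 and NDE2 lie apart by cell type in opposite directions.

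Summed over all 35 genes, the transcripts made up 9775, 7652 and 9649.8 CPM in aerial replicates 1, 2 and 3 and 11778, 9948 and 9193 CPM in root replicates 1, 2 and 3. The mean was 1.14-fold higher in root cells and the groups overlapped. The ATP synthase genes summed to 3956, 3434 and 3779 CPM in aerial and 5293, 4758 and 4135 CPM in root cells, without overlap and with a ratio of the means of 1.27. The most abundant of them were ATP1, with means of 734 CPM in aerial and 1036 CPM in root cells, and ATP2, with 1186 and 1631 CPM. Neither of these genes was called. The sums of complex III (2178 ± 230.1 against 2431 ± 316 CPM) and complex IV (805 ± 284 against 1019.8 ± 314 CPM) overlapped, as did those of complex II (1134 ± 487 against 932 ± 132 CPM) and of the NADH dehydrogenases (1185 ± 211 against 1194 ± 40.7 CPM; SD, n = 3).

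**Figure D5:**
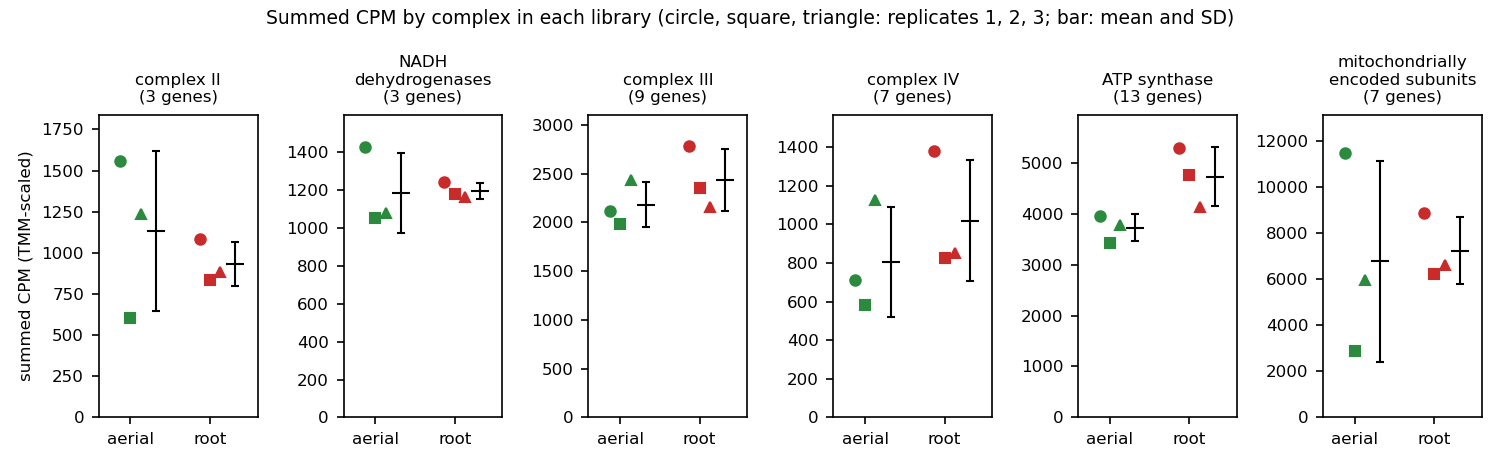
Summed CPM (vertical axes, each from 0) of the genes of each complex, and of the mitochondrially encoded subunits, in the aerial (green) and root (red) libraries, with circles, squares and triangles for replicates 1, 2 and 3 and a black bar for the mean and SD. The ATP synthase is the only panel in which all root libraries, 4135 to 5293 CPM, lie above all aerial libraries, 3434 to 3956 CPM. Its most abundant genes, ATP1 and ATP2, were not called.

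The core subunits encoded in the mitochondrial genome gave 0 calls with edgeR, with 1 unadjusted p below 0.05. Of all protein-coding loci tested 35.1% were called, and 43.1% of all loci tested had an unadjusted p below 0.05. Of 7 such genes, ATP8 had at most 1 count in a library and was not tested, and the other 6 were tested. Their sum was 11483, 2874 and 5961 CPM in the aerial and 8886, 6230.4 and 6605 CPM in the root libraries, so the root libraries lay within the range of the aerial ones. The log2 fold changes were −0.26 for COX1, −0.06 for COX2, −0.04 for COX3, 0.05 for COB and 0.50 for OLI1. ATP6, a subunit of the proton channel, had 129, 49.1 and 24.2 CPM in aerial and 172, 214 and 121 CPM in root cells (log2 fold change 1.33, edgeR adjusted p = 0.0798), and it was the 1 gene of these that DESeq2 called (adjusted p = 0.0160).

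Cytochrome c, the carrier between complexes III and IV, stood apart from its partners. CYC1, its main isoform, had 34.7, 24.4 and 33.6 CPM in the aerial and 248, 142 and 137 CPM in the root libraries and was higher in root cells (log2 fold change 2.51, edgeR adjusted p = 0.000849). The minor isoform CYC7 did not pass the test, with 19.0, 24.9 and 29.4 CPM and 25.8, 19.1 and 19.7 CPM. The 5 other subunit genes outside the 35, SDH1, COX5A, COX5B, COX26 and ATP19, did not pass either, at 0.71, 0.63, −0.14, −0.54 and 0.26. CYC1 passed the test in each of the 13 alternatives.

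The paralogs of complex II subunits were higher in aerial cells in 3 of 3 cases, where 16.9% of all protein-coding loci were higher in aerial cells. SHH3, the paralog of SDH3, had 467, 195 and 513 CPM in the aerial and 68.8, 57.8 and 58.6 CPM in the root libraries (log2 fold change −2.67, edgeR adjusted p = 0.00125). SHH4, the paralog of SDH4, had a value of −1.40 (edgeR adjusted p = 0.0191), and YJL045W, the paralog of the flavoprotein gene SDH1, had −1.01 (edgeR adjusted p = 0.0128). The nucleotide identities within these pairs were 52.8%, 56.0% and 75.1%. A difference between the paralogs and the SDH genes was not tested, and the calls of SHH4 and YJL045W were lost in 4 and 3 of the 6 fits that left out a library, with edgeR adjusted p-values of up to 0.0838 (without root replicate 2) and 0.0723 (without root replicate 3).

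The carriers that supply the ATP synthase and the import machinery of the inner membrane held genes higher in root cells. PET9, the main ADP/ATP carrier (1.40, edgeR adjusted p = 0.00313), MIR1, the phosphate carrier (1.33, edgeR adjusted p = 0.0110), and RCF2, a supercomplex factor (1.34, edgeR adjusted p = 0.00225), were higher in root cells, and RCF1 was higher in aerial cells (−1.26, edgeR adjusted p = 0.0314), all on the log2 scale. Of these 9 carrier, porin and supercomplex genes, 3 were higher in root, 1 in aerial cells and 5 did not pass, where 18.2% of all protein-coding loci were higher in root and 16.9% in aerial cells. Of 10 import and chaperone genes, 5 were higher in root cells and none in aerial cells, among them the inner membrane translocase genes TIM17 (1.00) and TIM23 (1.03). The 5 became 2 without root replicate 1, where TOM20, TIM44 and TIM50 lost the call (edgeR adjusted p of 0.0716, 0.0658 and 0.101), and 3 without root replicate 2. RCF1 remained called in 1 of the 6 fits that left out a library, with an edgeR adjusted p of up to 0.118 (without root replicate 3), and its aerial replicate 1 (13.0 CPM) was within the root range of 11.8 to 13.7 CPM.

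Ubiquinone synthesis genes were called in both directions, and single genes were called among the electron donors and the ATPase inhibitors. Of 11 ubiquinone synthesis genes, 2 were higher in root cells, including COQ2 (1.41, edgeR adjusted p = 0.00514), and 3 in aerial cells, including COQ4 (−1.07, edgeR adjusted p = 0.0106), beside the shares of 18.2% and 16.9% over all protein-coding loci. The 3 became 2 with DESeq2 and without aerial replicate 3, and 1 without root replicate 1, 2 or 3. The 2 higher in root cells became 1 without root replicate 1, 2 or 3 and with upper quartile normalization. MCR1, a mitochondrial NADH-cytochrome b5 reductase, was higher in aerial cells (−1.14, edgeR adjusted p = 0.0152), and the donors GUT2, CYB2 and DLD1 did not pass the test. GUT2 was called higher in aerial cells by DESeq2 (DESeq2 adjusted p = 0.0243), with library sizes alone and without aerial replicate 2. STF2, counted with the ATPase inhibitors, was higher in aerial cells at −1.53 (edgeR adjusted p = 0.00909), and INH1 and STF1 did not pass at −0.33 and −0.93. STF1 was called higher in aerial cells by DESeq2 (DESeq2 adjusted p = 0.0375) and without aerial replicate 1. When libraries were left out, the highest edgeR adjusted p-values were 0.0615 for COQ4 (without root replicate 2) and 0.0900 for MCR1 and 0.0526 for STF2 (both without root replicate 3).

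Of the assembly factors, most did not pass the test, at 1 of 14, 5 of 30 and 2 of 12 called in 3 lists, against 35.1% of all protein-coding loci. Of 14 genes for the assembly of complexes II and III, 1 was higher in aerial cells, and of 30 for complex IV, 4 were higher in aerial cells, including COA4 (−1.27, edgeR adjusted p = 0.0211), and 1 in root cells. The first of these counts became 0 without root replicate 1, 2 or 3, with library sizes alone, with no filter and with the replicate block, and 3 without aerial replicate 1, and DESeq2 called 2 in aerial and 1 in root cells. The 4 genes of complex IV assembly became 7 without aerial replicate 1, 1 without aerial replicate 3 or root replicate 1, 2 without root replicate 2 and 0 without root replicate 3. The call of COA4 was lost in 3 of the 6 fits that left out a library, with an edgeR adjusted p of up to 0.110 (without root replicate 3). The gene higher in root cells was OXA1, the insertase of the inner membrane, with 31.8, 36.6 and 35.2 CPM in aerial and 91.1, 90.5 and 76.1 CPM in root cells (1.31, edgeR adjusted p = 0.00114). Of 12 genes for the assembly and expression of the ATP synthase, ATP10 was higher in root cells (0.84, edgeR adjusted p = 0.0102) and NCA2 in aerial cells (−1.04, edgeR adjusted p = 0.00228). The call of ATP10 was lost without root replicate 1 (edgeR adjusted p = 0.0534). The genes of the Hap complex and the oxygen-responsive regulators HAP1 and ROX1 gave 0 calls of 6 with edgeR, with 0 unadjusted p-values below 0.05 and 0 calls with DESeq2. HAP4, its activating subunit, had 495, 784 and 432 CPM in aerial and 662, 767 and 604 CPM in root cells and a log2 fold change of 0.25.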

How the data were processed

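Strand-specific, rRNA-depleted libraries of 3 aerial and 3 root samples were used. The authors mapped the reads to R64 with TopHat2 2.0.14 and used featureCounts for strand-specific counts per locus. The deposited table holds the raw counts. Their own test used DESeq2 1.12.3. The line without a locus, which held 2 to 6 counts per library, was left out, and the number of value columns not mapped to a sample was 0.

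The main analysis used edgeR 4.0.16 with limma 3.58.1 in R 4.3.3. Low loci were removed by filterByExpr, libraries were normalized by TMM (factors 0.871 to 1.09), and root was tested against aerial with the quasi-likelihood F test. The Benjamini-Hochberg adjustment covered all 7971 loci kept. Intervals are at 95%. The procedure was tested on simulated data of the comparison of root with aerial cells over 10239 loci. There edgeR called 53 of 98 loci changed 2-fold, 102 of 102 changed 4-fold and 9 unchanged ones. In the real data far more loci were called, 2515 of 7971, and the adjusted p depends on that share. The simulated calls thus check the procedure only. They do not give the power to call a 2-fold change in the genes described here. Deviations used log2(CPM + 0.5). Sequences were read from the RefSeq genome R64, the build of the files, in place of the promoter table planned. Summaries were computed with pandas 2.3.3, scipy 1.17.1 and numpy 2.4.6 and plotted with matplotlib 3.10.9 under Python 3.11.15.

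All 35 genes are accounted for. Given in full are the called genes, the NADH dehydrogenases, complex II and the gene nearest to no change in each complex. From the other lists, genes past the threshold and 2-fold and the mitochondrially encoded subunits are named. Other genes, and the examples in each complex, were named after their values were seen. The members and lists were chosen with earlier results of these data known. Alternatives were DESeq2 1.42.0, other normalizations and filters, replicate number as a block and each library left out.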

Additional observations from a re-analysis of the deposited data

How the results depend on the processing

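Over 7 other analyses of all 6 libraries, NDE1 and NDE2 kept their direction and passed the test in each. The number of genes higher in root cells was 2 in the analysis reported, 3 with DESeq2 and 1 with upper quartile normalization and with library sizes alone, and between 0 and 4 when single libraries were left out. The number higher in aerial cells was 1, and 0 to 2 with libraries left out. Whether aerial and root samples of the same number came from the same plates is not stated. The same-numbered correlations of the deviations from the group means were −0.14, 0.14 and −0.04, and aerial replicate 3 correlated best with root replicate 1 (0.36). With so few libraries these correlations cannot show whether the samples were paired. With replicate number as a block, 3 genes were higher in root cells, COX9 being added (edgeR adjusted p = 0.0202), and 1 in aerial cells. In pairs of equal number, the log2 difference of the NDE2 to NDE1 ratio stayed at −1.95. Its exact p of 0.25, the smallest possible in pairs, was again fixed by the separation of both genes. Without single libraries that difference ranged from −2.39 to −1.73. Of 455 values of single genes under the alternatives, 409 kept direction and side of the threshold, 12 lost and 6 gained the threshold, and 28 changed sign, in 11 genes. QCR6 was −0.035 with upper quartile normalization, −0.083 with library sizes alone and −0.0029 with no filter. COX13 was −0.030 with upper quartile normalization. ATP15 was 0.0014 with DESeq2, 0.0053 with no filter and 0.040 with the block. Without single libraries, the values ranged from −0.61 to 0.17 for SDH4, −0.057 to 0.11 for COR1, −0.34 to 0.38 for QCR6, −0.059 to 0.54 for QCR8, −0.025 to 0.39 for COX6, −0.28 to 0.93 for COX7, −0.034 to 0.71 for COX12, −0.24 to 0.35 for COX13, −0.17 to 0.11 for ATP3, −0.35 to 0.43 for ATP15 and −0.24 to 0.078 for ATP16. The cause of these differences was not tested. With 3 libraries per cell type, uncalled genes whose interval reaches past 2-fold cannot be told from changed ones. The lowest count of any of the 35 genes in a library was 313.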
